A study of Homo sapiens with 8 samples.

Results

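PUM2, TIAL1, PABPC1 and SSB encode proteins that bind RNA at or near its 3' end, and the results below describe where the RNA-binding protein QKI7 was found on their own transcripts. The members were taken by gene name from 4 deposited peak lists, and they are 4 of 6520 named genes. They hold 29 of 42083 peaks, which formed 9 of 14518 sites once peaks of the same gene and strand that share at least 1 exon base had been joined across lists. All cells were HepG2, a human liver cancer line, that carried Cas9 and a lentiviral 3 x Flag-QKI7 transgene (pmiRNA1-3 x Flag-QKI7), in the controls as in the knockout. One arm was the control, sgNS, and the other was the METTL1 knockout, sgMETTL1, made with a guide RNA against METTL1. After UV cross-linking and sonication, RNA was sequenced before (input) and after Flag immunoprecipitation (IP), so that the 8 samples formed 4 groups of 2. GFP-positive cells were kept and expanded for the study, and the labels name no clone. Because QKI7 was expressed from a transgene in every sample, the lists show RNAs recovered with tagged QKI7, and an IP from cells without the tag was not analysed here.

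QKI7 is an isoform of Quaking, a KH-domain protein that binds mRNAs, often in the 3' untranslated region, and acts on their splicing, stability and translation. METTL1, with WDR4, places 7-methylguanosine on tRNA and other RNAs. Of the proteins encoded by the members, PUM2 is a Pumilio protein that binds short motifs in 3' untranslated regions and recruits the CCR4-NOT deadenylase, which shortens the poly(A) tail. TIAL1 (TIAR) binds U-rich stretches and is known as a component of stress granules, and PABPC1 coats the poly(A) tail in the cytoplasm. SSB, the La protein, is best known for binding the U-rich 3' ends of newly made RNA polymerase III transcripts, so the group name of 3' UTR-binding proteins describes it less well. These functions belong to the proteins, and the lists report on the transcripts.

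Each list compared 1 IP sample with its input and gave each peak a fold of IP over input and a p-value, both the authors' own values. The 4 lists held 11562 and 11038 peaks with sgNS and 10095 and 9388 with sgMETTL1, with a median fold of 4.33 to 4.58 and a smallest fold of 1.09 to 1.15. No read counts were used, so the depth behind a peak is unknown, and whether folds are on one scale across lists is not stated. QKI had peaks in all 4 lists. No list held a peak of METTL1 or WDR4, so the knockout cannot be checked in them. Peaks in both lists of either guide were found for the hepatocyte markers APOB, SERPINA1, FGB and HNF4A, 4 of 9 checked, and for 1 of 7 markers of other cells, LYZ. The labels do not say that replicates came from separate cultures, so tests measure the spread between these lists, which may be technical.

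All 4 transcripts had a peak in every list, but they differed in where QKI7 was found and over how many bases. PUM2 held 3 sites, TIAL1 held 4, and PABPC1 and SSB held 1 each. In the order sgNS replicates 1 and 2, then sgMETTL1 replicates 1 and 2, PUM2 had 3, 4, 3 and 2 peaks, TIAL1 had 3, 3, 2 and 1, and PABPC1 and SSB had 1 in each list. Of the 9 sites, 4 were in all 4 lists (41.3% of all sites were), 1 was in both sgNS lists but missing from both sgMETTL1 lists (7.42% of all sites), and 2 were in a single sgNS list. With sites of sgNS lists alone counted together, the members had 3 of 9 and all sites had 27.6%. None of the 9 was found with sgMETTL1 alone, against 13.5% of all sites. With peaks joined only at 50% reciprocal overlap the members formed 13 sites. Of these, 3 were found with sgMETTL1 alone (23.1%, against 26.3% of all sites) and 6 with sgNS alone (46.2%, against 33.7%). Some of them shared bases with a peak of the other guide whose length was too different for joining. Sites of 1 gene share a transcript, so the 9 sites are not independent.

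**Figure D1:**
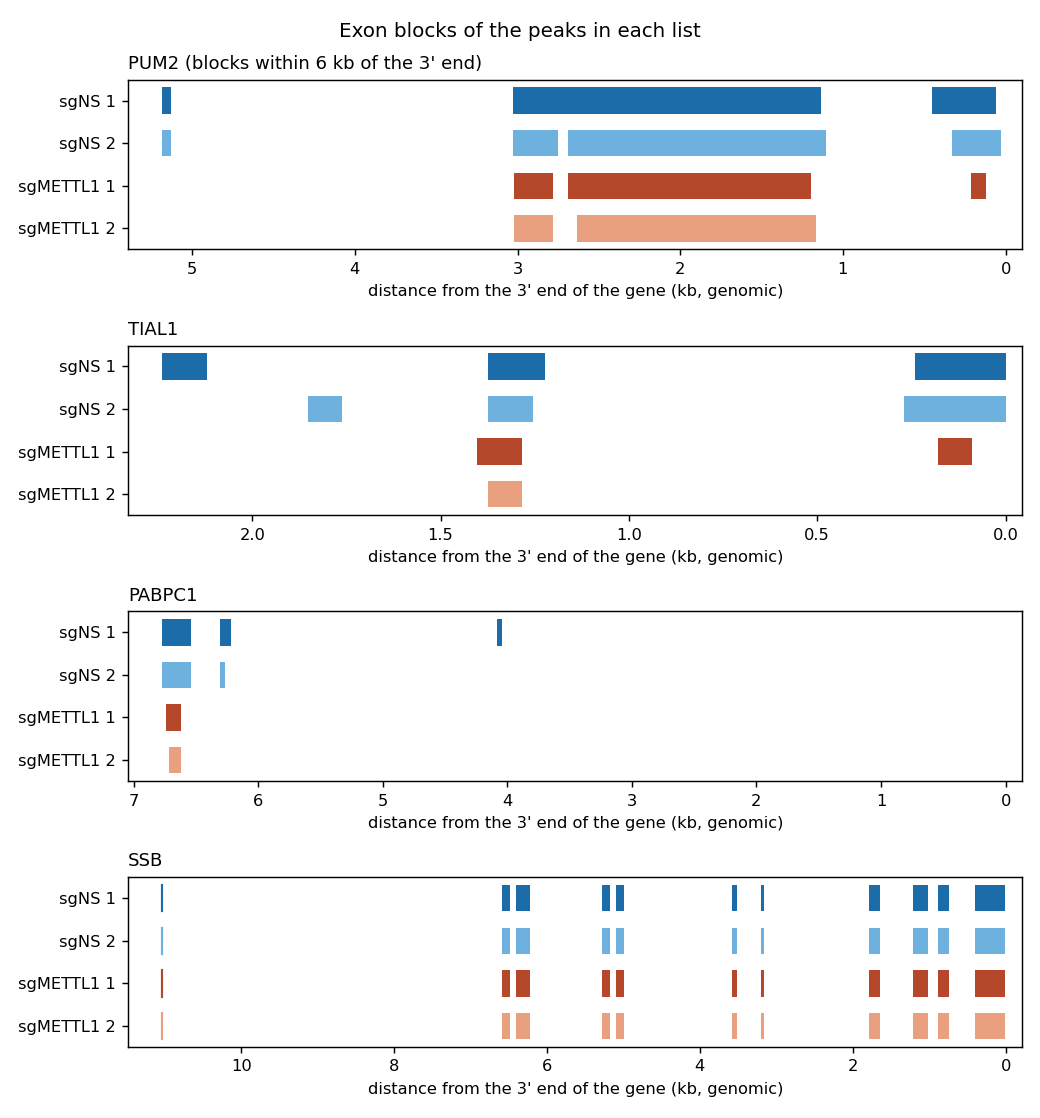
Exon blocks of the peaks of PUM2, TIAL1, PABPC1 and SSB in the 2 sgNS lists (blue) and the 2 sgMETTL1 lists (red), by genomic distance in kb from the 3' end of the gene, with the 3' end on the right. The 11 SSB blocks, the most distant of which is 1 base long and drawn as a line, are the same in all 4 lists, whereas PABPC1 keeps parts of 1 of its 3 blocks with sgMETTL1; the PUM2 site 59677 bases from the 3' end lies outside the panel.

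PUM2 carried its main site in a broad stretch near the 3' end (chromosome 2, 20249798 to 20253877, minus strand, GRCh38). The RefSeq span of the gene is 20248691 to 20352253, so the site began 1107 bases from the 3' end. The authors' fold there was 8.35 and 7.80 in the sgNS lists and 8.36 and 8.02 in the sgMETTL1 lists. These 4 values overlap between the guides. In each list this fold stood at the 28.2nd to 29.6th percentile of all peaks, where 0 is the strongest. The site covered 1945 and 1916 bases with sgNS and 1736 and 1707 with sgMETTL1, and 1677 bases were shared by all 4 lists.

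The PUM2 site was listed as 1 peak of 2 exon blocks in replicate 1 of sgNS and as 2 separate peaks in each of the other 3 lists. The part farther from the 3' end, from about 20251443, had a fold of 4.18 in replicate 2 of sgNS and of 2.60 and 2.37 with sgMETTL1. A block of 56 bases (20253822 to 20253877), 5131 bases from the 3' end, was covered in both sgNS lists and missing from both sgMETTL1 lists. The share of such blocks over all genes was not computed. For 58.8% of the 4150 genes in all 4 lists, both sgMETTL1 lists covered fewer bases than both sgNS lists. At PUM2 site 2 the base-10 logarithm of p for the strongest peak was -199 and -178 in the sgNS lists and -74.4 and -98.9 with sgMETTL1. Ranked by p, these peaks stood at percentiles 8.20 and 8.80 of the sgNS lists and 11.2 and 9.60 of the sgMETTL1 lists.

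The other sites of PUM2 were weaker. The site nearest the 3' end (20248722 to 20249141, 31 bases from it) had a fold of 3.52 and 3.00 with sgNS, over 390 and 300 bases. It had a fold of 2.23 over 90 bases in replicate 1 of sgMETTL1 and was not listed in replicate 2. Sites held by both sgNS lists and replicate 1 of sgMETTL1 alone made up 5.71% of all sites, and 3.97% were held with replicate 2 in its place. The third PUM2 site (20308368 to 20308487) lay 59677 bases from the 3' end, at 57.7% of the gene's span counted from that end. It was the 1 member site that both sgNS lists held and both sgMETTL1 lists lacked, with folds of 1.39 and 1.56, at percentiles 98.7 and 95.8, and thus among the weakest of their lists. Across all genes 72.1% of the 13900 sites with a matched RefSeq span had their centre in the last 10% of that span.

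TIAL1 held 4 short sites in the last 2240 bases of its span (chromosome 10, minus strand, RefSeq span 119573465 to 119596964). The site at the 3' end (119573466 to 119573735), 1 base from the annotated end, had folds of 5.29 and 7.20 with sgNS over 240 and 270 bases. In replicate 1 of sgMETTL1 it had a fold of 2.58 over 90 bases, and replicate 2 did not list it. It was thus the strongest TIAL1 site with sgNS and not with sgMETTL1. The base-10 logarithm of p there was -15.5 and -25.7 with sgNS and -3.08 in replicate 1 of sgMETTL1, at the 41.9th, 32.8th and 93.1st percentile by p. The evidence for the site in the sgMETTL1 list was therefore among the weakest that the list holds.

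The next TIAL1 site (119574690 to 119574869, 1225 bases from the 3' end) was in all 4 lists. Its fold was 2.24 and 2.79 in the sgNS lists and 3.05 and 2.60 in the sgMETTL1 lists, with overlapping values. It covered 150 and 120 bases with sgNS and 120 and 90 with sgMETTL1, of which 90 bases were common to all. These were weakly supported peaks, at percentiles by p of 72.4 and 76.1 in the sgNS lists, and of 76.7 and 82.3 in the sgMETTL1 lists. The 2 remaining sites were listed once each: 119575228 to 119575317 in replicate 2 of sgNS with a fold of 1.65, and 119575586 to 119575705 in replicate 1 of sgNS with a fold of 1.35. The replicates of sgNS did not share either of them.

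**Figure D2:**
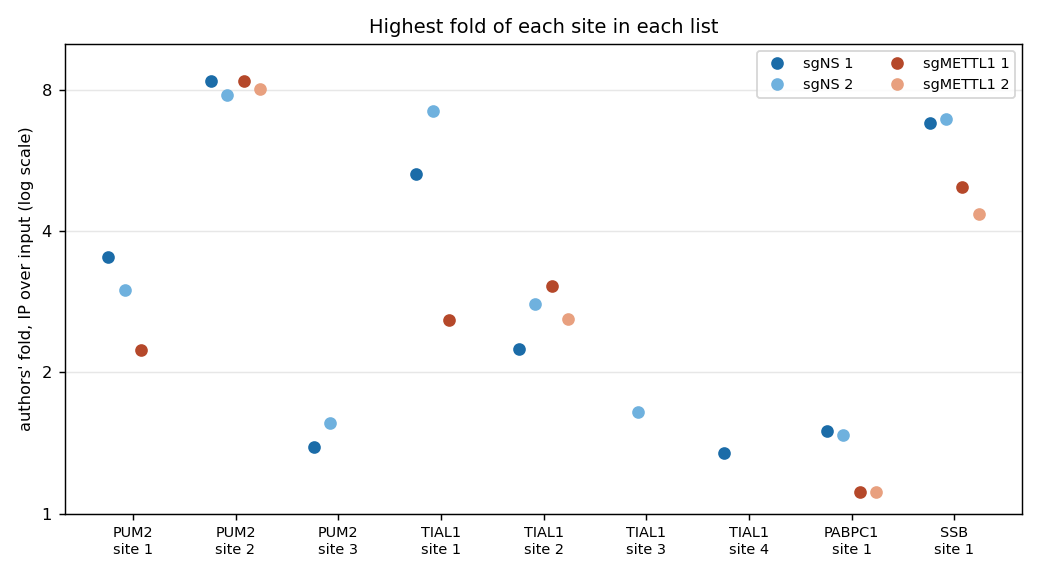
The authors' highest fold of each of the 9 sites in each list (log axis), with sites numbered from the 3' end of their gene, sgNS in blue and sgMETTL1 in red. A missing point means that the list holds no peak there. The PUM2 site 2 values lie between 7.80 and 8.36, while SSB stands at 6.79 and 6.91 in the sgNS lists and at 4.95 and 4.34 in the sgMETTL1 lists.

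Like PUM2 site 3 in the sgNS lists, the only PABPC1 site had a low fold and lay inside the gene. The PABPC1 site was in every list, each time near the bottom by fold. It lay 4045 to 6772 bases from the 3' end (chromosome 8, 100706961 to 100709688, minus strand, RefSeq span 100702916 to 100722088). The fold was 1.5 and 1.47 with sgNS and 1.11 in both sgMETTL1 lists. The guides did not overlap, as for 38.7% of the 6003 sites in all 4 lists on this lower side, and 1.11 was the smallest fold in either sgMETTL1 list, held by 3 peaks in replicate 1 and by 1 peak in replicate 2. In percentiles of the fold the 4 values stood at 97.2, 97.5, 99.99 and 99.99.

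The support for the PABPC1 peak by p was strong with sgNS and ordinary with sgMETTL1. The base-10 logarithm of p was -111 and -110 in the sgNS lists and -7.07 and -6.82 in the sgMETTL1 lists. Among all peaks of its list it stood by p at percentiles 12.9 and 13.0 in the sgNS lists and at 51.3 and 55.0 in the sgMETTL1 lists. In ranks by p the guides did not overlap on this lower side for 26.6% of sites. Its extent also differed: it had 3 exon blocks and 358 bases in replicate 1 of sgNS, 2 blocks and 269 bases in replicate 2, and 1 block of 120 and 91 bases with sgMETTL1. The block that all lists shared (100709459 to 100709688) was covered over 230 bases in both sgNS lists. The block at 100709133 to 100709223 was covered over 91 and 39 bases with sgNS and was in neither sgMETTL1 list. The block at 100706961 to 100706997 was in replicate 1 of sgNS alone. How often blocks of other genes show these patterns was not computed. RefSeq names 13 pseudogenes after PABPC1, none of which had a peak, and how the authors treated reads that fit several copies is not given in the sources used here, so the PABPC1 values are uncertain to that extent.

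SSB was covered along 11 exon blocks that were identical to the base in all 4 lists (chromosome 2, 169801026 to 169812061, plus strand, RefSeq span 169798871 to 169812064). The blocks summed to 1467 bases, the outermost on the 5' side was 1 base long, and the last ran over 394 bases and stopped 3 bases from the 3' end. A single peak of this kind was uncommon: 6 to 10 peaks per list had 11 or more blocks, and 69 peaks in all had the same blocks in the 4 lists. Besides SSB, DVL1 with 15 blocks was the only one of those 69 with 11 or more. The fold was 6.79 and 6.91 in the sgNS lists and 4.95 and 4.34 in the sgMETTL1 lists. Both sgMETTL1 values lay below both sgNS values, as at PABPC1 and 38.7% of the sites in all 4 lists, while for 9.9% of those sites both lay above.

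By p the SSB peak was among the best supported of every list. The base-10 logarithm of p was -1930 and -1780 in the sgNS lists and -877 and -841 in the sgMETTL1 lists. In order of p it was peak 85 and 88 of the sgNS lists and peak 97 and 104 of the sgMETTL1 lists. In order of fold it stood at percentiles 35.2 and 32.7 of the sgNS lists and 45.6 and 50.9 of the sgMETTL1 lists. SSB therefore combined a middling fold with a very small p, and PABPC1 with sgNS combined a fold near the minimum with a p in the first 13.0% of its lists.

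**Figure D3:**
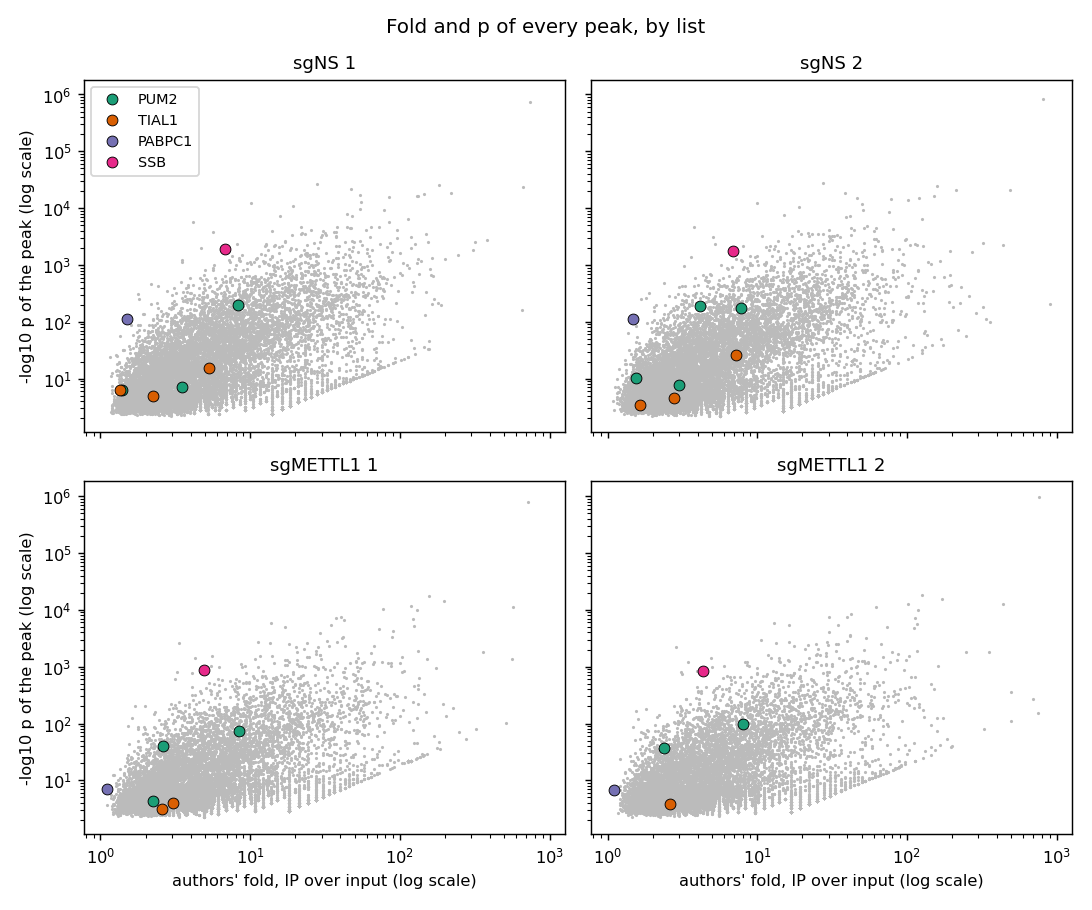
Fold against -log10 p of every peak (grey) in each of the 4 lists, both on log axes, with the peaks of the 4 genes in colour. SSB lies near the upper edge of the cloud in each panel, and PABPC1 lies at the left edge in each and has a base-10 logarithm of p of -111 and -110 in the sgNS panels against -7.07 and -6.82 in the sgMETTL1 panels.

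Whether QKI7 binding at these sites differed after loss of METTL1 was tested at sites found in all 4 lists. Each site's fold was ranked within its list among the 6003 sites and turned into a normal score, on which 0 is the middle and larger values are stronger, and 2 sgMETTL1 lists were compared with 2 sgNS lists by limma. No site of any gene passed an FDR of 5% (0 of 6003, 0%, two-sided, Benjamini-Hochberg), while 628 sites had p under 0.05 before adjustment, of which 303 (5.05% of the 6003) were lower after the knockout and 325 were higher. On log2 folds, without ranking, that split was 633 lower and 159 higher. With 2 lists against 2, an exact permutation test of a single site cannot go below p = 0.33.

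On normal scores, PABPC1 had the largest difference of the members, whereas on log2 folds SSB differed by -0.56 and PABPC1 by -0.42. Its scores were -2.51 and -2.48 in the sgNS lists and -3.59 and -3.76 in the sgMETTL1 lists, a difference of -1.18 (SE 0.184, 95% interval -1.65 to -0.707, n = 2 lists against 2, limma's adjusted p = 0.333). Its unadjusted p of 0.00136 was the 24th smallest of 6003, and 0.333 was also the smallest adjusted p of any site. The adjusted p ranged from 0.137 to 0.492 over the alternatives, and the lower end came from ranks by p, where the difference was -1.38 (SE 0.0797) and its unadjusted p of 0.000192 was the 5th smallest. Normal scores stretch the ends of a ranking, and at PABPC1 the difference spans the 97.2nd to the 99.99th percentile of the fold.

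The 1 tested site of each other member did not pass either. SSB had a score of 0.01 and 0.10 in the sgNS lists and -0.14 and -0.22 in the sgMETTL1 lists, a difference of -0.23 (SE 0.18, 95% interval -0.69 to 0.23, limma's adjusted p = 0.669). Its groups did not overlap, as for 23.7% of sites on the lower side and 20.3% on the higher side. PUM2 site 2 had scores of 0.20 and 0.22 in the sgNS lists and 0.36 and 0.40 in the sgMETTL1 lists, a difference of 0.17 (SE 0.176, 95% interval -0.28 to 0.62, limma's adjusted p = 0.754). For PUM2 the groups did not overlap on ranks although the folds themselves did, and the difference became -0.04 when peaks were ranked by p.

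For TIAL1 the sign depended on how its sites were compared. The 1 site in all 4 lists had scores of -1.48 and -1.03 in the sgNS lists and -0.75 and -0.92 in the sgMETTL1 lists, a difference of 0.41 (SE 0.231, 95% interval -0.18 to 1.01, limma's adjusted p = 0.56), which was 0.19 without replicate 1 of sgNS. With the mean score of the gene's peaks in each list the difference was 0.11 (SE 0.257, limma's adjusted p = 0.876). With the strongest fold of the gene in its place, which came from the 3' end site with sgNS and from the second site with sgMETTL1, the difference was -0.76 (SE 0.228, limma's adjusted p = 0.436). The folds compared were then 5.29 and 7.20 against 3.05 and 2.60. The strongest fold of TIAL1 thus sets different places of the transcript against each other.

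**Figure D4:**
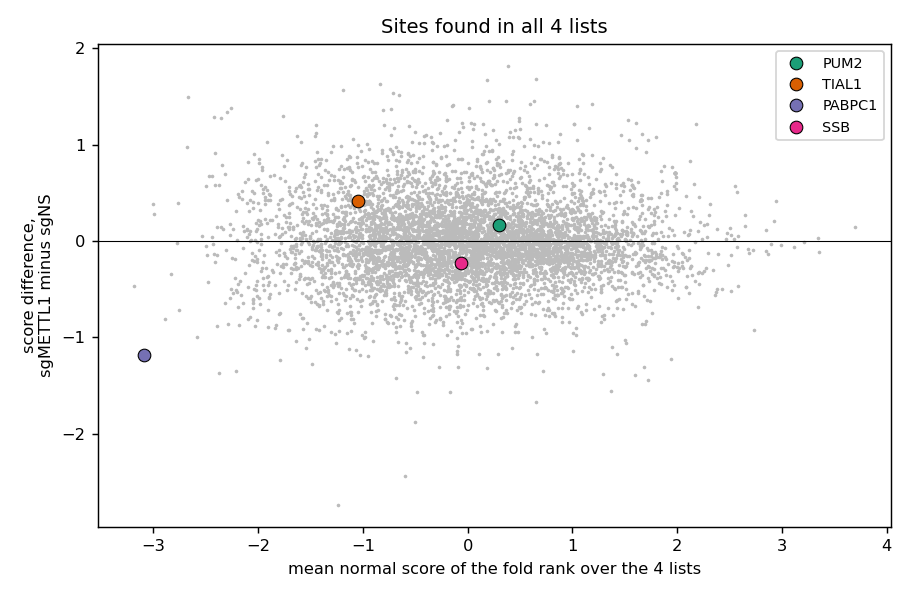
Score difference of sgMETTL1 minus sgNS against the mean score for the 6003 sites in all 4 lists (grey), with the 4 member sites in colour. PABPC1 lies at the lower left with a difference of -1.18, and SSB at -0.23, PUM2 at 0.17 and TIAL1 at 0.41 lie within the cloud.

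The number of bases covered by peaks was compared as a second measure, chosen after the data were seen. PUM2 had 2425 and 2336 covered bases with sgNS and 1826 and 1707 with sgMETTL1. TIAL1 had 510 and 480 in the sgNS lists and 210 and 90 in the sgMETTL1 lists, and PABPC1 had 358 and 269 against 120 and 91. SSB had 1467 in every list, as its peak had the same blocks throughout. In PUM2, TIAL1 and PABPC1 both sgMETTL1 values lay below both sgNS values, 3 of 4 members, and so did they for 58.8% of the 4150 genes in all 4 lists, with 3.71% the other way, so this count is read against a general shift. Values equal in all 4 lists, as for SSB, were found for 1.01% of genes.

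On the log2 scale of covered bases, limma called 0 of 4150 genes at an FDR of 5% (0%), with 1178 at an unadjusted p under 0.05, 1128 of them lower, around a median over all genes of -0.32. With each list centred on its median the unadjusted split was 279 lower and 603 higher. TIAL1 differed by -1.85 (SE 0.51, limma's adjusted p = 0.156), PABPC1 by -1.57 (SE 0.24, adjusted p = 0.102) and PUM2 by -0.43 (SE 0.07, adjusted p = 0.106). After that centring the difference was -1.41 for TIAL1 and -1.13 for PABPC1 (limma's adjusted p = 0.217 and 0.21), and 0.01 for PUM2. SSB, at 0 before centring, then differed by 0.44 (95% interval 0.10 to 0.78, limma's adjusted p = 0.217), since its bases were the same in lists whose medians differ. PUM2 thus stood where the median gene did, TIAL1 and PABPC1 stood below it and SSB above it, none of them passing the test. The sgMETTL1 lists held fewer peaks. With 9388 peaks in each list the median over all genes was -0.30, TIAL1 differed by -1.70 and PABPC1 by -1.57 (limma's adjusted p = 0.191 and 0.106).

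**Figure D5:**
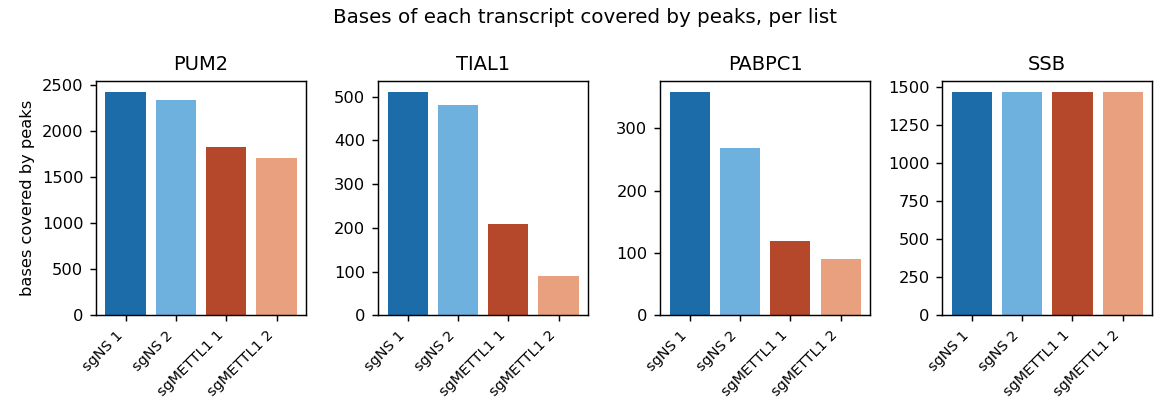
Bases covered by peaks of each gene in the sgNS lists (blue) and the sgMETTL1 lists (red), with each panel starting at 0 and on its own scale. SSB has 1467 bases in all 4 lists, and TIAL1 goes from 510 and 480 bases to 210 and 90.

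TIA1, the paralog of TIAL1, and PABPC4 and PUM3 had no peak in any list. PABPC3, an intronless relative of PABPC1 on chromosome 13 (25097217 to 25097397), had folds of 25.5 and 5.73 in the sgNS lists and no peak with sgMETTL1. Its peaks were weakly supported, with a base-10 logarithm of p of -5.79 and -4.67, at percentiles 67.1 and 75.1 by p. PABPC3 resembles PABPC1 in sequence, so reads could be split between them. PABPC1L, another relative, went the other way, with folds of 2.79 and 2.15 in the sgMETTL1 lists and no sgNS peak. Of all sites, 7.42% were shared by the sgNS lists alone and 1.21% by the sgMETTL1 lists alone. Such shares were not computed for whole genes.

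The wider set of genes was described in 4 lists that include the members. Poly(A)-binding proteins and partners had a peak in both sgNS lists for 12 of 18 genes and in both sgMETTL1 lists for 11, against 76.3% and 67.5% of the 6520 genes with any peak, a background that leaves out genes without one. PAIP1, which binds PABPC1 and stimulates translation, had folds of 122 and 196 in the sgNS lists and 105 and 69.4 in the sgMETTL1 lists. ZC3H14, a nuclear poly(A)-binding protein, stood at 3.83 and 4.45 against 3.27 and 2.85, and ATXN2, a PABPC1 partner, at 2.06 and 4.19 against 4.95 and 2.87. PAIP1 was far above PABPC1 in rank, at the 1.26th percentile or better in each list.

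PUM proteins and CCR4-NOT subunits were listed for 8 of 15 genes with sgNS and 7 of 15 with sgMETTL1. The deadenylase gene CNOT6 had folds of 25.5 and 21.3 in the sgNS lists and 15.9 and 19.8 in the sgMETTL1 lists, and the ligase gene CNOT4 had 12.7 and 6.76 against 8.95 and 10.4. CNOT6L, a deadenylase, and CNOT2, a scaffold subunit, had folds of 3.09 to 4.57 over the 4 lists. CNOT6 was thus above PUM2 in fold in each list, and CNOT6L and CNOT2 were below it.

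AU- and U-rich element binding proteins were listed for 15 of 21 genes with sgNS and 12 of 21 with sgMETTL1. Several stood far above TIAL1: the Musashi gene MSI2 had folds of 85.3 and 128 in the sgNS lists and 87.8 and 60.9 in the sgMETTL1 lists, and ELAVL1 (HuR), which stabilises mRNAs, had 55.7 and 116 against 67.6 and 50.4. MSI1 had 60.2 and 38.0 against 107 and 91.6, and CPEB2, which binds cytoplasmic polyadenylation elements, had 55.6 and 34.9 against 54.9 and 66.6. The guides overlapped at MSI2, ELAVL1 and CPEB2. At MSI1 both sgMETTL1 values lay above both sgNS values, as they did at LARP1. At PAIP1, ZC3H14, CNOT6 and CNOT2 both lay below. Among the sites compared between the guides, 9.9% were higher in this way and 38.7% were lower. No such share was computed for the strongest fold of a gene.

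Of the La family, 3 of 7 genes had peaks in both lists of either guide: SSB, LARP1 and LARP4. LARP4, which binds poly(A) and PABPC1, had a strongest fold of 10.8 and 11.7 in the sgNS lists and 9.94 and 11.5 in the sgMETTL1 lists, and LARP1, which binds mRNAs of ribosomal proteins, had 5.26 and 6.34 against 6.60 and 10.7. In replicate 2 of sgMETTL1 this LARP1 site was cut into a peak of 571 bases (fold 2.14) and another of 600 bases (fold 10.7). Every other list held it as a single peak of 1230 or 1260 bases. The 10.7 therefore covers only part of the site, and whether the cut explains its height was not tested. LARP4B was in replicate 2 of sgNS alone, with a highest fold of 19.0 but weak support (percentile 86.8 by p). LARP1B, LARP6 and LARP7 had no peak. LARP4 was thus above SSB in fold in each list.

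By the strongest fold of each gene, limma called none of the genes of these lists. In the poly(A) list 6 of the 10 genes in all 4 lists were lower with sgMETTL1 (median difference -0.16), in the PUM and CCR4-NOT list 2 of 7 (median 0.07), in the AU- and U-rich list 5 of 12 (median 0.08) and in the La family 1 of 3 (median 0.12). Over all 4150 genes 52.2% were lower, with a median of -0.02. At an unadjusted p under 0.05 in limma stood 3 of the 10 poly(A) list genes (PABPC1, PAIP1 and ATXN2L), all lower. In the AU- and U-rich list 2 of 12 did (TIAL1 and HNRNPC), both lower, and in the other lists 0 of 7 and 0 of 3. Over all 4150 genes 196 were lower and 212 higher. PABPC1 and TIAL1 are members themselves. The TIAL1 value sets different sites against each other, and its 1 site in all 4 lists was higher, by 0.41.

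The sites most like each member were those with the smallest distance between their normal scores over the 4 lists. SSB was closest to a site of UCK2, with folds of 6.63 and 7.02 in the sgNS lists and 5.04 and 4.57 in the sgMETTL1 lists (distance 0.0731), then of NME7 and DCP2. PUM2 site 2 was closest to sites of ABHD4, ADGRG6 and SHANK2, at distances of 0.108 to 0.117, and the TIAL1 site to those of CBL, BAG2 and DCAF7, at 0.203 to 0.222. For PABPC1 the nearest were EIF4G2 (distance 0.664), PTMA (0.838) and PTGES3 (0.865). PABPC1 lies at an end of the ranking, which normal scores stretch, and whether this made the distances large was not tested. In folds the sites were similar and also lower with sgMETTL1, which follows largely from choosing them by their scores in these same lists. EIF4G2 had 1.43 and 1.58 with sgNS and 1.17 and 1.21 with sgMETTL1. PTMA had 1.35 and 1.37 against 1.11 and 1.21, and PTGES3 had 1.66 and 1.43 against 1.27 and 1.22. How often other sites lie this close to each other was not measured, so the likeness is a description.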

How the data were processed

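RNA immunoprecipitation sequencing of 8 samples was read from 4 peak lists, 1 for each IP and input pair. Per the submitters' processing notes, STAR and GRCh38 were used; their versions, the peak caller and its thresholds are not stated in the labels or headers. The fold is a ratio of IP over input as deposited by the authors. Every peak's p-value is as deposited by the authors. The authors also deposited base-10 logarithms of p and FDR, handled as a score since they reach far beyond the range of ordinary log values. Each list belongs to 1 replicate, and no scaling between lists is stated.

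Peaks of the same gene name and strand that shared at least 1 exon base were joined into sites. A site's value in a list was its highest fold. Normal scores of within-list ranks, over the 6003 sites in all 4 lists, were compared with limma 3.58.1 in R 4.3.3 (FDR 5%). Python 3.11.15, pandas 2.3.3, numpy 2.4.6, scipy 1.17.1 and matplotlib 3.10.9 were used. On simulated scores for 6003 sites with 200 shifted, 0 were recovered at a shift of 0.5, 59 at 1 and 199 at 2. Of the unshifted sites 0, 3 and 3 were called. The simulated scores had 1 common spread for all sites, which the real scores do not have. Recovery in the real lists may therefore be lower, and these counts do not measure it. Covered bases were compared likewise, on the log2 scale, and this log2 value was computed here from the deposited block sizes. Coordinates are 1-based, and gene spans are from RefSeq GRCh38.p14. Sequences, transcript parts and motifs were not analysed here.

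The members and gene lists were chosen with earlier results of these data known. One gene of these lists is not reported here and was left out of its list. Named genes are the members, relatives of them, METTL1, WDR4 and QKI, up to 4 further genes per list with the best mean rank of the fold over the lists that hold them, and the 3 sites most like each member; ATXN2L, HNRNPC and DVL1 were named after their values were seen. Alternatives were log2 folds, ranks by p, gene-level values, 50% reciprocal overlap, a fold of at least 2, equal numbers of peaks (9388, or 4694), a replicate block and leaving out each list; for covered bases, centring, equal numbers, the block and leaving out each list.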

Additional observations from a re-analysis of the deposited data

How the results depend on the processing

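No setting called a site or a gene at an FDR of 5%, for the fold or for covered bases. PABPC1 could not be compared with 50% reciprocal overlap or a mean fold of at least 2. PUM2 changed sign when ranked by p (-0.0413) and, for covered bases, with lists centred on their medians (0.00762), and TIAL1 with the strongest fold of each gene (-0.758). Leaving out each list in turn gave differences of -1.27 to -1.09 for PABPC1, -0.279 to -0.186 for SSB, 0.154 to 0.187 for PUM2 and 0.191 to 0.637 for TIAL1. For covered bases the genes at an unadjusted p under 0.05 numbered 634 without replicate 1 of sgNS and 706 without replicate 2 of sgNS, against 1178. On log2 folds the median over all sites was -0.22 and PABPC1 differed by -0.42 (limma's adjusted p = 0.459) and SSB by -0.56 (0.397).

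The count of member sites held by both sgNS lists and lacking from both sgMETTL1 lists depended on the setting. With 50% reciprocal overlap it was 4 of 13 (30.8%, against 6.75% of all sites). The reverse pattern held for 1 of the 13 (7.69%, against 2.80% of all sites). At PUM2 site 1, TIAL1 site 1 and PABPC1, sgMETTL1 peaks of 90 to 120 bases lay inside sgNS peaks of 240 to 390. Such lengths fall short of 50% reciprocal overlap, so the 4 include sites that sgMETTL1 lists cover in part. With a fold of at least 2 the count was 0 of 5 (against 6.43%). Member sites in all 4 lists numbered 2 of 4 with 4694 peaks per list, against 59.9% of all sites. Poly(A) list genes in both sgMETTL1 lists numbered 7 with a fold of at least 2. The other 47 counts stayed within 1.5 times, but they include the numbers called, which were 0 in every setting. Counts were compared without their totals. Member sites in all 4 lists went from 4 of 9 (44.4%) to 3 of 13 (23.1%) with 50% reciprocal overlap and still counted as unchanged. Of the member differences, 71 had no change between lower and higher. As no setting called anything, none of them could cross the threshold. Among the 71, SSB covered bases went from 0, which has no sign, to 0.439 with lists centred on their medians.

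In site scores no pairing by replicate number was seen: same-numbered lists had deviations from their group means that correlated at -0.000892 across sites. Ranking removes a shift common to a whole list, so such a shift could not be seen this way. For covered bases the block lowered the SE for PABPC1 (0.244 to 0.0749) and TIAL1 (0.509 to 0.412). It raised the SE for PUM2 (0.0738 to 0.0763) and SSB (0.0578 to 0.0747). With the replicate number as a block in the site comparison limma called 0 sites, 595 had an unadjusted p under 0.05, and PABPC1 had an adjusted p of 0.484. No read counts were used, so limits set by depth could not be given.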
